A study of Mus musculus with 17 samples.

Results

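Igf2bp1, Igf2bp2, Igf2bp3, Lin28a, Lin28b, Hmga1, Hmga2, Igf2, H19 and Arid3a form a set of 10 genes for RNA and chromatin regulators of the fetal and embryonic state. They are 10 of the 26029 genes listed in the model 1 count table. The genes were chosen on their levels in these same libraries, so their levels and fold changes are given here as a description, without p-values. All mice carried the Spi1 transgene (TgSpi1), which drives SPI1/PU.1 overexpression and an erythroblast proliferation, and RNA was taken from erythroid blasts kept in culture with erythropoietin (EPO). Model 1 held blasts from DBA2JxFVB/N mice: 4 preleukaemic TgSpi1FA+/+ mice (WT preleukaemic; mice are named as in the sample titles, preleukemic_138, preleukemic_445, preleukemic_451 and preleukemic_479), 3 preleukaemic TgSpi1FA-/- mice lacking Fanca (KO preleukaemic, preleukemic_40, preleukemic_77 and preleukemic_224) and 3 leukaemic TgSpi1FA-/- mice (KO leukaemic, leukemic_26, leukemic_28 and leukemic_39). Model 2 held blasts from DBA2J mice with intact Fanca: 4 preleukaemic (preleukemic_633, preleukemic_663, preleukemic_812 and preleukemic_837) and 3 leukaemic (leukemic_601, leukemic_606 and leukemic_921), the leukaemic cells having emerged after blood transfusions. The labels give no age. Model, strain, Fanca status of the leukaemic cells and library protocol cannot be told apart between the models. The model 1 samples analysed here include no leukaemic TgSpi1FA+/+ mouse. The paper reports an Nras mutation in mice leukemic_28 and leukemic_39 and a Kit mutation in leukemic_26. A second table held 7 of the model 1 mice again (all 4 WT preleukaemic and all 3 KO leukaemic).

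Library totals were 29964576 to 38217654 counts in the model 1 table, 35497594 to 171572736 in the second table and 37726753 to 40514205 in the model 2 table. Titles and the cell type label place preleukemic_40, preleukemic_77 and preleukemic_224 as preleukaemic, whereas their column names and source names read leukaemic. The titles were followed. Fanca counts were 19 to 70 in the 6 KO libraries and 889 to 2941 in the 4 WT libraries of model 1, as the genotypes require. Markers of erythroid cells summed to 2206 to 3417 CPM (counts scaled to library size) in KO leukaemic, 3635 to 4387 CPM in KO preleukaemic and 3660 to 5171 CPM in WT preleukaemic libraries, and markers of myeloid, mast, B, T and stromal cells summed to at most 15.4 CPM in model 1. Megakaryocyte markers summed to 164 to 251 CPM in KO leukaemic against 31.1 to 39.3 CPM in KO preleukaemic and 44.2 to 190 CPM in WT preleukaemic libraries, and the 2 progenitor markers to 703 to 930 CPM against 296 to 506 CPM and 229 to 801 CPM. For both lists the WT preleukaemic range overlapped with the leukaemic one. The part of these shifts in the results was not tested, and in bulk RNA fewer cells of a type and less RNA per cell cannot be told apart. In the model 1 table the libraries labelled preleukemic_445 and preleukemic_479 were far closer to each other (Pearson r = 0.992 of log2 CPM over genes, chi-square of 8.56 per degree of freedom) than any other pair of a group (r = 0.866 to 0.948). Each library of the model 1 table was closest to the library of the same mouse in the second table in 6 of 7 cases; preleukemic_445 was closer to preleukemic_479 (r = 0.923) than to preleukemic_445 (r = 0.893). The fitted fold changes of Igf2bp3, Lin28b and Arid3a against WT preleukaemic cells are therefore also given with the counts of these 2 libraries summed.

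As background, IGF2BP1, IGF2BP2 and IGF2BP3 are cytoplasmic RNA-binding proteins with KH domains that bind target mRNAs, many of them carrying N6-methyladenosine, and protect them from decay. IGF2BP1 and IGF2BP3 are made mainly in the embryo and reappear in tumours, while IGF2BP2 is made in many adult tissues. LIN28A and LIN28B block maturation of the let-7 microRNAs, and let-7 in turn represses the mRNAs of LIN28, IGF2BP and HMGA2. In blood, the LIN28B and IGF2BP axis marks fetal progenitors and falls after birth, and ARID3A is a let-7 target DNA-binding protein of fetal haematopoiesis. HMGA1 and HMGA2 are architectural chromatin proteins, and Igf2 and H19 are neighbouring imprinted genes for a fetal growth factor and a long noncoding RNA.

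let-7 microRNAs recognise their targets through the seed, bases 2 to 8, shown in capitals because the matches counted next are its reverse complement. Of 11 mouse let-7 family names with a mature RefSeq sequence (GRCm38.p6), 10 shared the seed GAGGUAG, and the sequences below differ only outside it. The microRNAs themselves were not measured in these poly-A libraries.
let-7a-5p: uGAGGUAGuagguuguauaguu
let-7b-5p: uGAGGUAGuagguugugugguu
let-7g-5p: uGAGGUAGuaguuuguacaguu
let-7i-5p: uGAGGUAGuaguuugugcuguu
miR-98-5p: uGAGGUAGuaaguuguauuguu

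The reverse complement of the seed, CTACCTC, was counted on the sense strand in the longest 3' untranslated region (3' UTR) of each gene in GENCODE M21 (GRCm38). Of 21832 genes with such a region, 8.68% held at least 1 match and 0.147% held 3 or more. Igf2bp1 held 4 matches in 6337 bases, a number reached by 0.331% of 604 regions of like length. Lin28b held 4 in 4445 bases (reached by 0.295% of 1357 regions) and Hmga2 held 4 in 3014 bases (reached by 0.123% of 2438). Arid3a and Lin28a held 2 matches each, Igf2bp2, Igf2bp3 and Hmga1 held 1 each and Igf2 held 0. H19 is noncoding and has no such region. Matches are printed 5' to 3' for 4 genes that were abundant in some libraries, with the match in capitals.
Igf2bp1, chr11:95961773-95961800, minus strand: gctgtgcgaagtaaaCTACCTCaaggtg
Igf2bp1, chr11:95958758-95958785, minus strand: gtataaatggatgaaCTACCTCagtcct
Igf2bp3, chr6:49086782-49086809, minus strand: tgcatttttactcaaCTACCTCaggtat
Lin28b, chr10:45381017-45381044, minus strand: acccgggcgggaagtCTACCTCatgcaa
Arid3a, chr10:79953895-79953922, plus strand: aaggcaagtttctttCTACCTCaggtct

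Igf2bp1 (ENSMUSG00000013415, chr11:95957163-96005940, minus strand) was high in all 3 KO leukaemic libraries and near 0 in all other model 1 libraries. Its counts were 4123 in leukemic_26, 11040 in leukemic_28 and 13809 in leukemic_39, or 113, 282 and 350 CPM. In the 3 KO preleukaemic libraries the counts were 1 in preleukemic_77, 0 in preleukemic_224 and 1 in preleukemic_40, and in the 4 WT preleukaemic libraries they were 0, 0, 0 and 1. The leukaemic and preleukaemic libraries of model 1 did not overlap. The summed rate was 12035-fold higher in KO leukaemic than in KO preleukaemic libraries, with a 95% interval of 3331 to 99382 that covers counting error only, since the preleukaemic sum was 2 counts. The fitted log2 fold change was 13.30 (SE 0.77) and lay between 12.75 and 13.68 when each mouse was left out. In the second table the same 3 leukaemic mice held 12464, 43730 and 7052 counts of Igf2bp1, against 23, 5, 16 and 14 in preleukemic_138, preleukemic_445, preleukemic_451 and preleukemic_479. Here too the groups did not overlap, and the summed rate was 1243-fold higher (95% interval 961 to 1637).

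In model 2 the order was the opposite and rested on 1 mouse. The preleukaemic library preleukemic_633 held 3899 counts of Igf2bp1 (98.3 CPM), close to the lowest KO leukaemic library. The other preleukaemic libraries preleukemic_663, preleukemic_812 and preleukemic_837 held 1, 0 and 4 counts, and the leukaemic libraries leukemic_601, leukemic_606 and leukemic_921 held 1, 0 and 0. Without preleukemic_633, no model 2 library was above 4 counts of Igf2bp1. The gene was removed by the filter on low counts in this table and was not tested there.

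Igf2bp3 (ENSMUSG00000029814, chr6:49085223-49214957, minus strand) was either abundant or nearly absent in the model 1 table, with both states among the preleukaemic libraries. Counts in the KO leukaemic libraries were 3749 in leukemic_26, 2954 in leukemic_28 and 2639 in leukemic_39 (102.7, 75.5 and 66.9 CPM). The KO preleukaemic libraries held 0 in preleukemic_77, 24 in preleukemic_224 and 2464 in preleukemic_40, and the WT preleukaemic libraries 2189 in preleukemic_445, 2075 in preleukemic_479, 20 in preleukemic_451 and 4067 in preleukemic_138. All leukaemic libraries were thus high, as were 1 of 3 KO and 3 of 4 WT preleukaemic libraries, all above 65 CPM, while the remaining 3 were under 1 CPM. The log2 fold change between KO leukaemic and KO preleukaemic libraries was 1.61 (SE 1.93), and 7.81 without preleukemic_40, the only high library of the KO preleukaemic group. In model 2, Igf2bp3 counts were 2602 in preleukemic_633, 1765 in preleukemic_663, 0 in preleukemic_812 and 2 in preleukemic_837 before leukaemia, and 7 in leukemic_601, 1803 in leukemic_606 and 0 in leukemic_921 in leukaemia. The same split was seen there, with 2 of 4 preleukaemic and 1 of 3 leukaemic libraries high.

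Igf2bp2 (ENSMUSG00000033581, chr16:22059009-22163299, minus strand) was the scarcest of the 3 paralogues in the leukaemic cells. It was at 38 counts in leukemic_26, 20 in leukemic_28 and 0 in leukemic_39, against 60, 39 and 60 in KO mice preleukemic_77, preleukemic_224 and preleukemic_40. The highest leukaemic count lay just under the lowest KO preleukaemic count, so the groups did not overlap, but the log2 fold change of -1.70 (SE 1.15) was not called. Per kilobase of exon, mean levels in KO leukaemic libraries were 25.7 CPM for Igf2bp1, 10.0 CPM for Igf2bp3 and 0.07 CPM for Igf2bp2. On the same scale the WT preleukaemic means were 0.00073, 7.67 and 0.26 CPM. The WT preleukaemic mean of Igf2bp3 was carried by 3 libraries, among them the nearly alike preleukemic_445 and preleukemic_479. In preleukemic_451 Igf2bp3 was at 0.079 CPM and Igf2bp2 at 0.56 CPM per kilobase. In the second table Igf2bp2 was also above Igf2bp3 in preleukemic_445 and preleukemic_451.

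**Figure D1:**
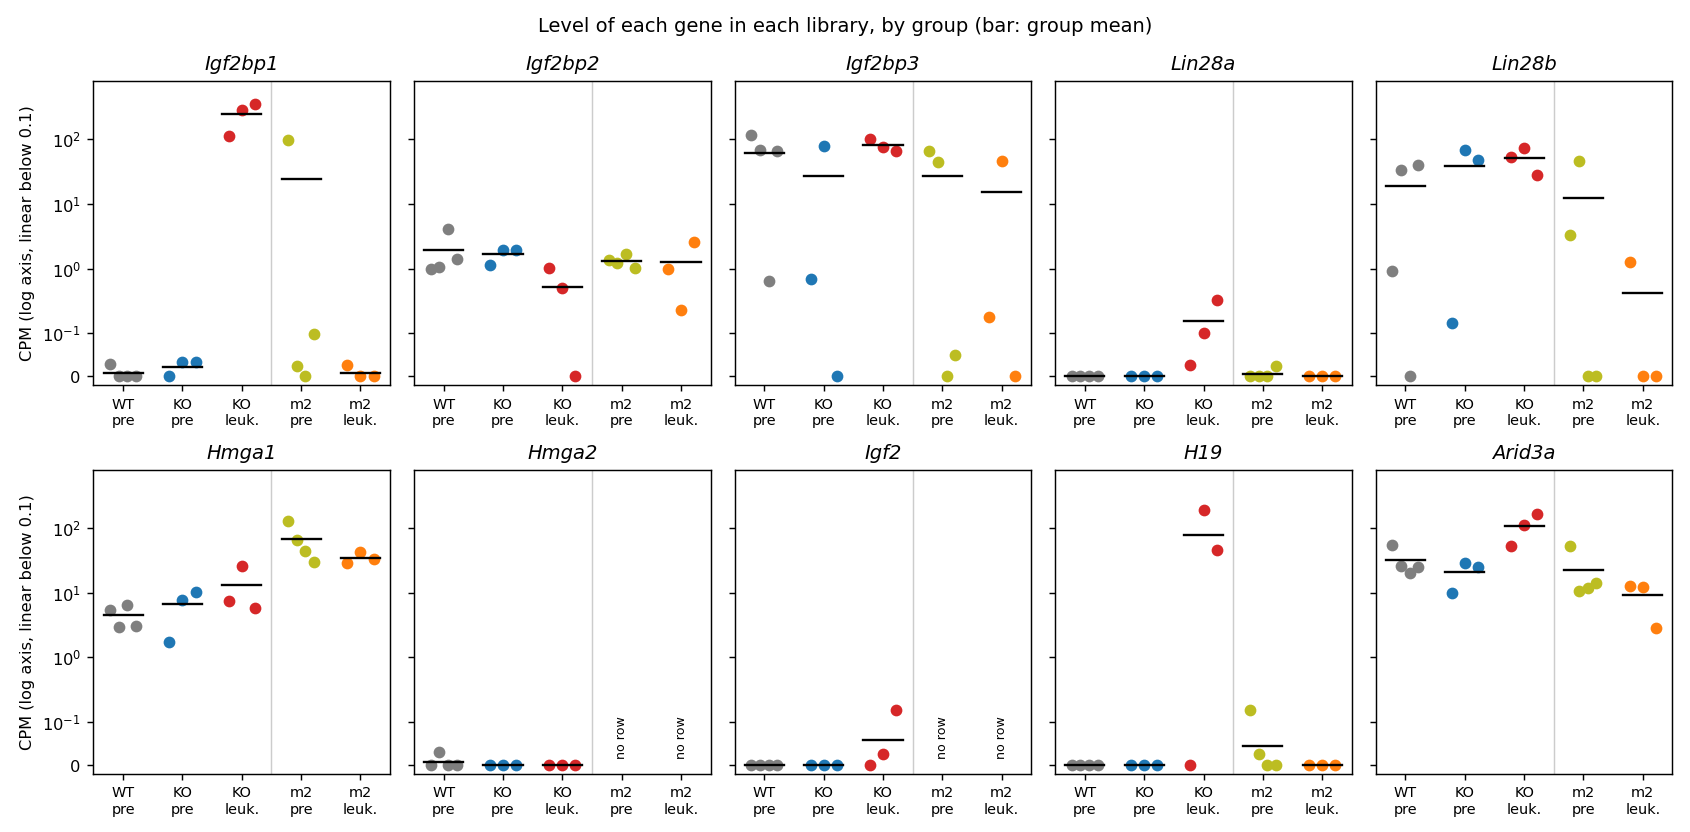
Level of each of the 10 genes in every library of the model 1 and model 2 tables, in CPM on an axis that is logarithmic above 0.1 and linear below; points are libraries, bars are group means, and the 2 tables on either side of the grey line were scaled separately. Igf2bp1 stands above 100 CPM in the 3 KO leukaemic libraries and at 98.3 CPM in 1 model 2 preleukaemic library; Igf2bp3 and Lin28b are split between high and near-zero libraries within groups.

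Lin28b (ENSMUSG00000063804, chr10:45376620-45486395, minus strand) showed a similar split. The KO leukaemic libraries held 1932, 2886 and 1094 counts in leukemic_26, leukemic_28 and leukemic_39 (52.9, 73.8 and 27.8 CPM). Among KO preleukaemic libraries preleukemic_77 and preleukemic_40 held 1462 and 2083 counts and preleukemic_224 held 5, and among WT preleukaemic libraries preleukemic_445 and preleukemic_479 held 1090 and 1283 counts, preleukemic_138 held 32 and preleukemic_451 held 0. Groups overlapped, with a log2 fold change of 0.42 (SE 1.90) between KO leukaemic and KO preleukaemic cells. In model 2 only preleukemic_663 was high, with 1862 counts, followed by preleukemic_633 with 133 and leukemic_601 with 49; preleukemic_812, preleukemic_837, leukemic_606 and leukemic_921 were at 0. Over the 10 libraries of the model 1 table, 6 were above 1 CPM for both Igf2bp3 and Lin28b, 2 for neither (preleukemic_451 and preleukemic_224), 1 for Igf2bp3 alone (preleukemic_138) and 1 for Lin28b alone (preleukemic_77). The 6 include preleukemic_445 and preleukemic_479. Of the 7 model 2 libraries, 2 were above 1 CPM for both, preleukemic_633 with only 3.35 CPM of Lin28b, and 3 for neither. Of the 7 libraries of the second table, 3 were above it for both, 1 for neither, 2 for Igf2bp3 alone and 1 for Lin28b alone.

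The second table changed this picture for the WT preleukaemic mice. There Lin28b counts were 73, 111, 2 and 5 in preleukemic_138, preleukemic_445, preleukemic_451 and preleukemic_479, so that the high level of preleukemic_445 and preleukemic_479 in the model 1 table (34.0 and 40.7 CPM) was 1.26 and 0.04 CPM in the second. Igf2bp3 in preleukemic_445 was 68.3 CPM in the model 1 table and 0.03 CPM in the second, whereas preleukemic_479 was at 65.8 and 10.8 CPM. In the second table the leukaemic mice leukemic_26, leukemic_28 and leukemic_39 held 53.1, 42.3 and 35.6 CPM of Igf2bp3, and the WT preleukaemic mice at most 34.0 CPM. For Lin28b the leukaemic values there were 21.3, 76.1 and 12.2 CPM, and the WT values at most 1.26 CPM. Neither gene overlapped between the groups in that table. The share of all genes without overlap was not computed there, so nothing is read from this. The log2 fold change of Lin28b between KO leukaemic and WT preleukaemic cells was 1.45 (SE 1.77) in the model 1 table and 6.19 (SE 1.45) in the second. It was not called in either, but in the second table DESeq2 and edgeR without the filter on low counts called it. In the model 1 table it was 2.00 with preleukemic_445 and preleukemic_479 summed, 1.89 without preleukemic_445 and 2.14 without preleukemic_479. That of Igf2bp3 was 0.39 (SE 1.75) in the model 1 table, 0.42 with the pair summed, and 1.95 (SE 1.58) in the second.

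**Figure D2:**
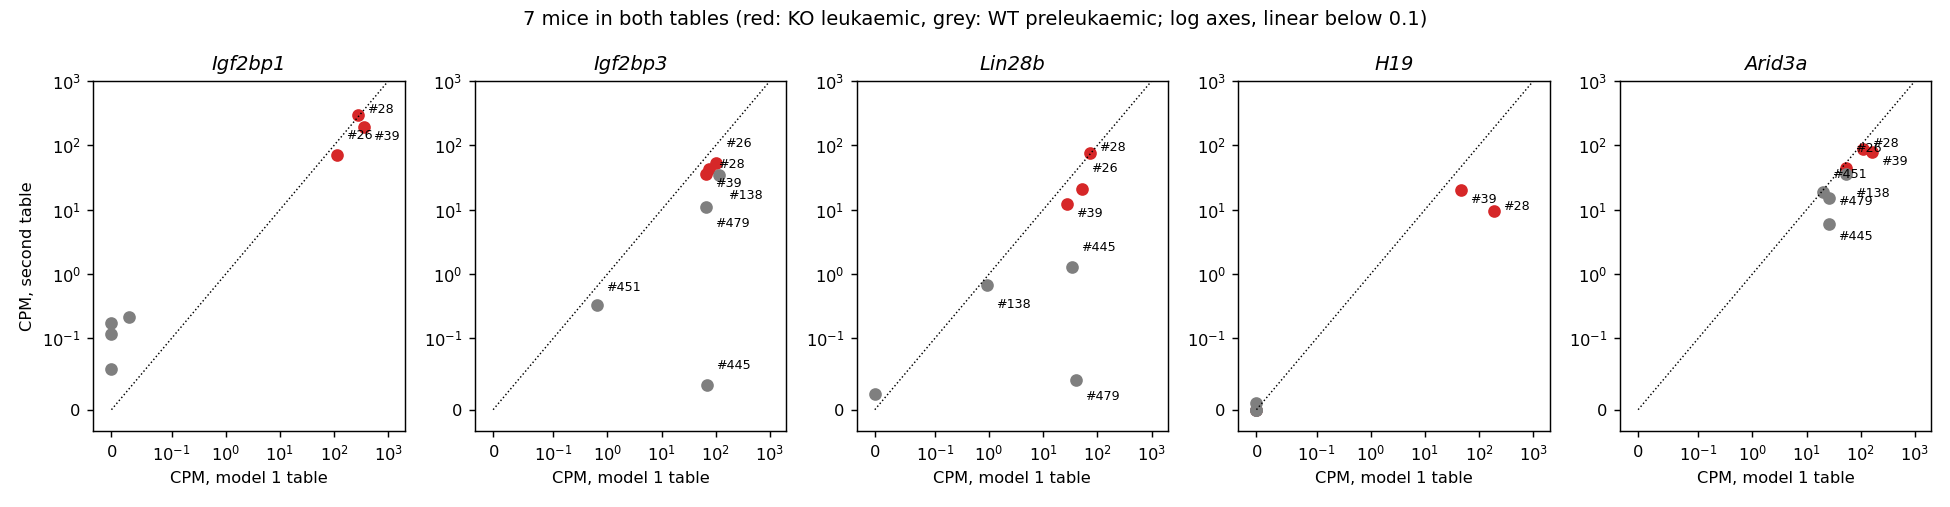
CPM of 5 of the genes in the model 1 table (horizontal) and in the second table (vertical) for the 7 mice in both, on axes logarithmic above 0.1 CPM; the dotted line marks equal values, and mice above 0.5 CPM in either table are marked by number. Igf2bp1 is separated by group in both tables, while preleukemic_445 and preleukemic_479 lie far below the line for Lin28b and preleukemic_445 for Igf2bp3.

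Promoters of Igf2bp3 and Lin28b, both abundant in some preleukaemic libraries and near 0 in others, are given from RefSeq (GRCm38.p6, 250 bases before to 50 after the start, gene strand). The E-box CACGTG, a palindrome and so the same on both strands, is in capitals; it was looked for after the sequences had been read. It occurred 2 times in the Igf2bp3 promoter, as in 0.594% of 32851 promoters with at least as many, and 1 time in that of Lin28b, as in 7.15% of promoters with any. None of the windows found for Lin28a, Igf2, Hmga2, Igf2bp2 and Hmga1 held it, and Igf2bp1, H19 and Arid3a were not matched. The Lin28b window lies inside the longer gene given by GENCODE.
Igf2bp3, chr6:49214905-49215204, minus strand: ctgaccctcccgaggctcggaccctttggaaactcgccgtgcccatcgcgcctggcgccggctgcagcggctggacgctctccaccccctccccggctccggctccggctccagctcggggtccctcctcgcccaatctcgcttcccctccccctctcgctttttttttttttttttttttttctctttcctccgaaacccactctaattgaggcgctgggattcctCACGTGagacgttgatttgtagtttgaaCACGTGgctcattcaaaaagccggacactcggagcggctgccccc
Lin28b, chr10:45470152-45470451, minus strand: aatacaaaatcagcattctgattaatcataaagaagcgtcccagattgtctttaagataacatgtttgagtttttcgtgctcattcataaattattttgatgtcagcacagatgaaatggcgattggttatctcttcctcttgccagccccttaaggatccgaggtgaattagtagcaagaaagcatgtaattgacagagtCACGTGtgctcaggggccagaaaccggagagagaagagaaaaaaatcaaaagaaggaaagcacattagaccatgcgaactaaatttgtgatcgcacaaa

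Lin28a (ENSMUSG00000050966, chr4:134003330-134018841, minus strand) stayed near the limit of detection. It had 0 counts in all 7 preleukaemic libraries of model 1 and 1, 4 and 13 counts in leukemic_26, leukemic_28 and leukemic_39. In the second table the leukaemic mice held 35, 9 and 7 counts and the WT preleukaemic mice 3, 1, 5 and 1, a ratio of summed rates of 5.81 (95% interval 2.92 to 12.8, counting error only). All these levels were at most 0.33 CPM, and the gene was removed by the filter on low counts in every table.

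H19 (ENSMUSG00000000031, chr7:142575529-142578143, minus strand, a lincRNA) appeared in 2 of 3 KO leukaemic mice. It had 7412 counts in leukemic_28 and 1830 in leukemic_39 (189 and 46.4 CPM), and 0 counts in leukemic_26 and in all 7 preleukaemic libraries of model 1. A count of 0 allows up to 3 counts, or at most 0.098 CPM in these libraries, and against that floor in each library the KO leukaemic mean was at least 833-fold higher than KO preleukaemic and at least 246-fold higher without leukemic_28. The second table gave 1362 counts in leukemic_28, 736 in leukemic_39 and 0 in leukemic_26, with 1 count over the 4 WT preleukaemic libraries. The mice leukemic_28 and leukemic_39 were the high libraries in both tables, though leukemic_28 was above leukemic_39 in the first (189 against 46.4 CPM) and below it in the second (9.39 against 20.1 CPM). In model 2 the counts were 6 in preleukemic_633, 1 in preleukemic_663 and 0 elsewhere. Igf2 (ENSMUSG00000048583, chr7:142650766-142666816, minus strand), its imprinted neighbour, held 1 count in leukemic_28, 6 in leukemic_39 and 0 in the other 8 model 1 libraries, and was not analysed here in the other 2 tables. H19 and Igf2 did not pass the filter on low counts, since fewer than 3 libraries held them.

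Hmga1 (ENSMUSG00000046711, chr17:27556497-27563674, plus strand) shares near-identical sequence with Hmga1b (ENSMUSG00000078249, chr11:120762794-120764419, plus strand), and the share of their joint CPM that fell on Hmga1 was 4.11% to 19.3% in the model 1 table, against 47.7% to 59.1% in the second and 53.3% to 57.7% in the model 2 table. Mean Hmga1b was alike in the model 1 and second tables, at 140 and 129 CPM in KO leukaemic and 55.4 and 49.1 CPM in WT preleukaemic cells. Mean Hmga1 was 13.2 and 141 CPM, and 4.49 and 50.1 CPM, in the same order. The sum was thus also lower in the model 1 table. The cause was not tested, and the sum is given for each table by itself. The sum was 161, 156 and 143 CPM in KO mice leukemic_26, leukemic_28 and leukemic_39, above 53.4, 36.5 and 43.9 CPM in KO mice preleukemic_77, preleukemic_224 and preleukemic_40. WT preleukaemic libraries were at 38.2 to 87.4 CPM, so the leukaemic libraries did not overlap with either preleukaemic group, and the ratio of means was 3.44 to KO preleukaemic and 2.56 to WT preleukaemic cells. In the second table the ratio to WT preleukaemic cells was 2.72, with leukaemic values of 234 to 291 CPM and preleukaemic values of 75.8 to 115 CPM. In model 2 the leukaemic values of 51.0 to 73.8 CPM overlapped with the preleukaemic values of 55.2 to 223.9 CPM, and the highest of these was preleukemic_633. Taken by itself, Hmga1 was not called between KO leukaemic and KO preleukaemic cells, with 7.34, 26.3 and 5.89 CPM against 10.3, 1.73 and 7.70 CPM, and its log2 fold change was 0.03 without leukemic_28. That of Hmga1b was 1.88 (SE 0.29). Hmga2 (ENSMUSG00000056758, chr10:120361275-120476469, minus strand) had 1 count in all of model 1, in preleukemic_445, at most 4 counts in a library of the second table, and was not analysed here in model 2.

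Arid3a (ENSMUSG00000019564, chr10:79927043-79955018, plus strand) was detected in every library and was highest in the KO leukaemic mice. Its counts were 1931, 4309 and 6451 in leukemic_26, leukemic_28 and leukemic_39 (52.9, 110 and 164 CPM), against 758, 333 and 901 in preleukemic_77, preleukemic_224 and preleukemic_40 (24.9, 9.74 and 29.1 CPM). These groups did not overlap. WT preleukaemic libraries were at 26.2, 25.4, 20.1 and 54.4 CPM in preleukemic_445, preleukemic_479, preleukemic_451 and preleukemic_138, the last just above leukemic_26. The log2 fold change was 2.36 (SE 0.56) from KO preleukaemic and 1.79 (SE 0.50) from WT preleukaemic to KO leukaemic cells, the latter 1.70 with preleukemic_445 and preleukemic_479 summed. The first was called and lay between 1.96 and 2.69 when each mouse was left out, but the call was kept only without leukemic_26 and lost without preleukemic_77, preleukemic_224, preleukemic_40, leukemic_28 or leukemic_39, and also when only the 6 libraries compared were fitted. In model 2 Arid3a was at 52.4 CPM in preleukemic_633, at 10.6, 11.7 and 14.1 CPM in the other preleukaemic libraries and at 12.6, 12.2 and 2.87 CPM in leukaemia. Its log2 fold change there was -1.27 (SE 0.76), and -0.40 without preleukemic_633.

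A gene was called where its adjusted p was under 0.05 and its fold change at least 1.5. Between KO leukaemic and KO preleukaemic cells 13.3% of 13393 genes were called, 913 higher and 869 lower. Of the 10 genes 6 passed the filter, Igf2bp1 only through the leukaemic libraries, and 2 were called, Igf2bp1 and Arid3a, both higher; this contrast was among the values the genes were chosen on, so nothing is read from the count. For 19.4% of genes every leukaemic library was above every KO preleukaemic one, as was the case for Igf2bp1 and Arid3a here, and for Lin28a, which did not pass the filter and so is not among those genes. The share was computed for this contrast and direction only, so nothing is read from other groups given as not overlapping. For this contrast DESeq2 called 19.8% of 15664 genes and added H19 to the called genes, and H19 was also called by edgeR when leukemic_26 was left out. Between KO and WT preleukaemic cells 0.00747% of genes were called and 0 of the 6 genes tested, with 0 at an unadjusted p under 0.05 by edgeR and 0 called by DESeq2. Between KO leukaemic and WT preleukaemic cells 7.01% were called in the model 1 table, among them Igf2bp1, and 1.59% in the second table, among them Igf2bp1 and Hmga1. The Hmga1 call in the second table was lost with preleukemic_445 and preleukemic_479 summed and without leukemic_28, leukemic_39, preleukemic_445 or preleukemic_479. Hmga1 also has near-identical sequence to Hmga1b. These contrasts share the KO leukaemic or the WT preleukaemic mice and are not independent of each other. Arid3a was called by DESeq2 but not by edgeR in the last 2, with log2 fold changes of 1.79 (SE 0.50) and 1.90 (SE 0.55).

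Between leukaemic and preleukaemic cells of model 2, 0% of 12970 genes were called by edgeR, with 2587 at an unadjusted p under 0.05. DESeq2 called 3.45% of 13619 genes there. None of the 5 genes tested was called by either tool, and 0 had an unadjusted p under 0.05 by edgeR; DESeq2 gave Lin28b no adjusted p. Mast cell markers summed to 57.9 to 70.8 CPM in model 2 leukaemia and 2.55 to 54.9 CPM before it, and their part was not tested. Log2 fold changes were -0.07 (SE 0.74) for Igf2bp2, -0.84 (SE 2.58) for Igf2bp3, -4.88 (SE 3.06) for Lin28b, -0.94 (SE 0.48) for Hmga1 and -1.27 (SE 0.76) for Arid3a. The difference between the leukaemic changes of model 1 and model 2 was called for 4.61% of 14597 genes. It was called for Igf2bp1 and for Arid3a, which were chosen on these levels, so the calls are a description. The difference for Arid3a was 3.61 (SE 0.97) on the log2 scale and 2.76, no longer called, without preleukemic_633. That of Igf2bp1 was 24.26 (SE 4.42), a size set by groups near 0 and lowered to 15.22 without preleukemic_633. Both calls were lost without any of preleukemic_77, preleukemic_224, preleukemic_40, leukemic_28, leukemic_39, leukemic_601, leukemic_606 or leukemic_921.

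**Figure D3:**
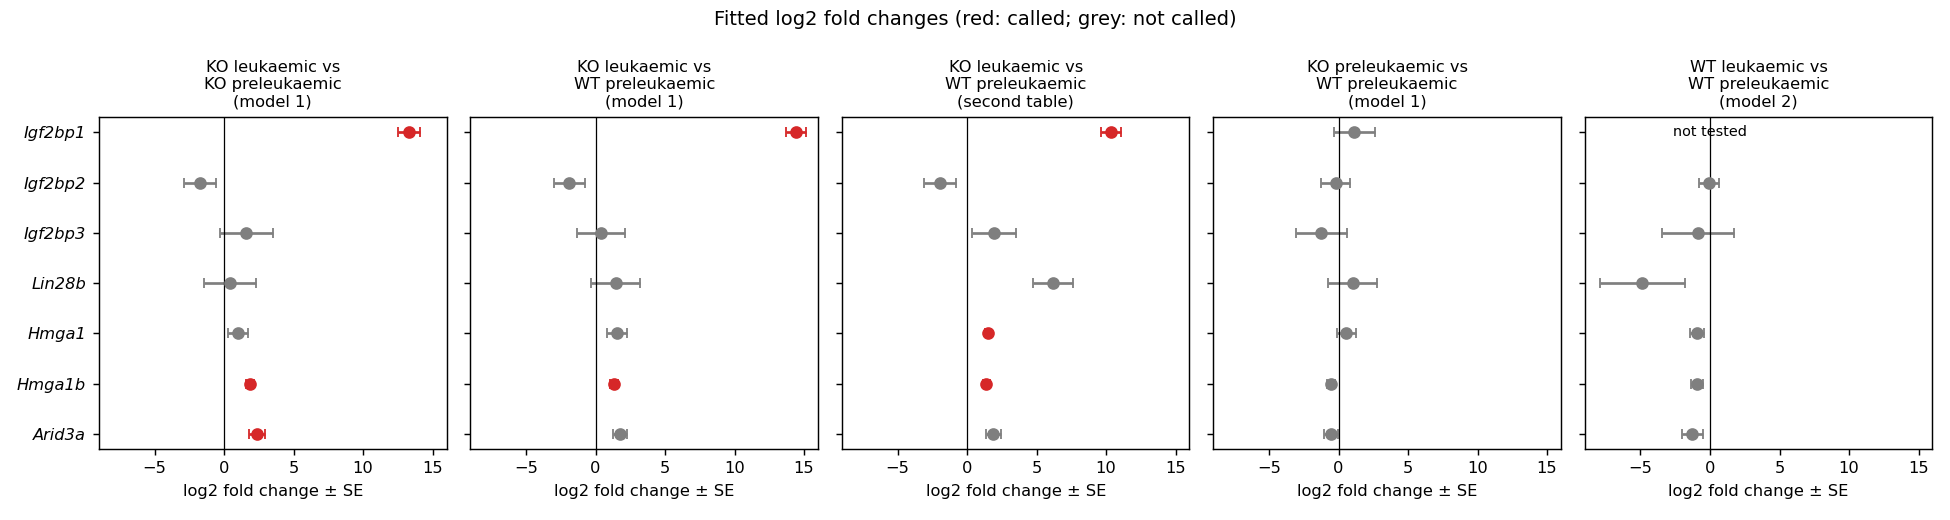
Fitted log2 fold changes with standard errors for the genes tested and for Hmga1b, in 5 comparisons; red points were called. Igf2bp1 lies at 13.30, 14.42 and 10.37 in the 3 comparisons with KO leukaemic cells, and Igf2bp3 and Lin28b carry standard errors above 1.4 in each comparison.

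To set the genes in their pathways, 9 lists of related genes were tested; 161 of their genes had a row in at least 1 table. Between KO leukaemic and KO preleukaemic cells, 24 of the 117 listed genes tested (20.5%) were called, 8 higher and 16 lower, beside 13.3% of all genes. The lists were chosen with earlier results of these data known. Their counts and adjusted p-values, here and below, are therefore a description, and nothing is read from a difference to all genes. The count was 15 without preleukemic_77, 7 without preleukemic_224, 13 without preleukemic_40, 8 without leukemic_28 and 11 without leukemic_39, and 28 without leukemic_26. In model 2 none of 110 was called by edgeR, 39 had an unadjusted p under 0.05, and DESeq2 called 13. Adjusted p-values are those of the edgeR quasi-likelihood test over all genes tested.

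Between KO leukaemic and KO preleukaemic cells, the list of fetal erythroid regulators and embryonic globins had 7 of 13 tested genes called, 2 higher and 5 lower. Its median log2 fold change was -0.87 beside -0.00 for all genes. Against WT preleukaemic cells 4 of 13 were called in the model 1 table, 1 higher and 3 lower, and 0 of 13 in the second table. The values that follow are from the contrast with KO preleukaemic cells unless stated. Hbb-bh1, an embryonic beta-like globin, rose in KO leukaemic cells (adjusted p = 0.018). It was at 588 counts in leukemic_26, 71844 in leukemic_28 and 36960 in leukemic_39, against 3, 2 and 0 in preleukemic_77, preleukemic_224 and preleukemic_40. WT preleukaemic libraries held 2 to 344 counts, and in model 2 preleukemic_633 held 3233 and the other 6 libraries 3 to 49. Hbb-bh1 was thus highest in the 2 leukaemic mice that held H19, those with the reported Nras mutation. In model 2 it was highest in the mouse that held Igf2bp1. These co-occurrences rest on single mice or pairs of mice and were not tested. Hic2, a repressor of Bcl11a, rose to 69.5, 111 and 125 CPM in leukemic_26, leukemic_28 and leukemic_39 from 6.43 to 13.6 CPM, a log2 fold change of 3.39 (SE 0.74, adjusted p = 0.022). WT preleukaemic libraries held 6.12 to 56.0 CPM of Hic2, the most in preleukemic_138. In model 2 Hic2 was again highest in preleukemic_633, at 69.7 CPM against 2.62 to 13.5 CPM elsewhere. The 5 genes that fell are all transcription factors. Bcl11a fell by 1.62 on the log2 scale (SE 0.45, adjusted p = 0.044), Nfix by 1.70 (SE 0.39, adjusted p = 0.026) and Myb, a progenitor transcription factor, by 1.39 (SE 0.24, adjusted p = 0.012). WT preleukaemic libraries held 172 to 326 CPM of Bcl11a, the least in preleukemic_138, and leukemic_26 held 175 CPM. Zbtb7a and the erythroid factor Klf1 were the remaining 2 that fell, with adjusted p-values of 0.0053 and 0.0063. The other listed regulators, Sox6 (-0.45, adjusted p = 0.53), Nfia (-3.53, adjusted p = 0.054), Mbd2 (-0.87, adjusted p = 0.081) and Chd4 (0.12, adjusted p = 0.75), were not called. In model 2 Bcl11a, Nfix and Myb had log2 fold changes of -0.79, -0.88 and -0.68. None was called by edgeR, which called 0 of all 12970 genes there, so nothing is read from the missing calls.

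Among let-7 target genes 7 of 32 tested were called, 4 higher and 3 lower (21.9%), with a median log2 fold change of 0.08. Besides Hic2, which stands in both lists, Nr6a1, an orphan nuclear receptor of embryonic cells, rose to 60.0 to 68.9 CPM from 6.43 to 9.61 CPM (log2 fold change 3.002, SE 0.40, adjusted p = 0.0056). Arid3b, the closest paralogue of Arid3a, was at 54.8 to 57.7 CPM in the leukaemic libraries and at 2.20 to 18.5 CPM in KO preleukaemic libraries (log2 fold change 2.77, SE 0.71, adjusted p = 0.034). Nras rose by 2.01 on the log2 scale (SE 0.45, adjusted p = 0.025). It was at 928 CPM in leukemic_28 and 1077 CPM in leukemic_39, while leukemic_26, at 274 CPM, was within the WT preleukaemic range of 185 to 294 CPM and above the KO preleukaemic range of 142 to 230 CPM. The paper reports an Nras mutation in leukemic_28 and leukemic_39, and its part in these levels was not tested. Rrm2, a subunit of ribonucleotide reductase, fell by 1.11 (SE 0.30, adjusted p = 0.041) and Pbx3 by 0.93 (SE 0.22, adjusted p = 0.027). The list did not move one way. The difference between models was called for Nr6a1 (3.68, SE 0.80, adjusted p = 0.032), and for 3 of 34 let-7 targets in all, beside 4.61% of all genes.

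Of 19 genes of LIN28 action and let-7 processing, 2 were called, both lower. They were Ago1, an Argonaute protein (-1.54, SE 0.41, adjusted p = 0.039), and Tut7, a terminal uridylyltransferase that acts on let-7 precursors (-1.22, SE 0.17, adjusted p = 0.0066). Readers, writers and partners of m6A and IGF2BP gave 2 calls of 23, Ythdf1 higher (0.82, SE 0.22, adjusted p = 0.039) and the demethylase Fto lower (-0.71, SE 0.16, adjusted p = 0.026). Of 9 imprinted genes tested 2 were called, both higher. Airn, a long noncoding RNA antisense to Igf2r, held 158, 143 and 510 counts in leukemic_26, leukemic_28 and leukemic_39 and 0 in each KO preleukaemic library (adjusted p = 0.025), and preleukemic_633 again stood highest in model 2 with 163 counts. Gnas rose by 0.91 (SE 0.26, adjusted p = 0.045). None of the 5 tested genes for IGF receptors and binding proteins was called by edgeR, with 1 at an unadjusted p under 0.05, and none of 3 other oncofetal and pluripotency genes, all 3 with an unadjusted p under 0.05. Other HMG proteins gave 2 calls of 8, Hmgb2 (-0.94, SE 0.19, adjusted p = 0.019) and Hmgn5 (-0.83, SE 0.19, adjusted p = 0.026), both lower. Among other ARID proteins 4 of 13 were called, Arid3b higher and Arid4a (-1.29, SE 0.18, adjusted p = 0.0056), Arid4b (-1.24, SE 0.16, adjusted p = 0.0053) and Arid1b (-0.76, SE 0.18, adjusted p = 0.026) lower. Its paralogue Arid3a was also higher, but was chosen on these levels, so no pattern of subfamilies is read from this. Arid5a (1.32) and Arid5b (2.10) were higher but not called. In model 2 the log2 fold changes were -1.39 for Arid1b, -1.14 for Arid4a, -0.46 for Arid4b and -0.57 for Arid3b. There Hmgn5 was at -1.15, Fto at -0.96, Tut7 at -0.91 and Ago1 at -0.82, while Hmgb2 was at 0.53. None of these was called by edgeR in model 2, where it called 0 of all 12970 genes, so nothing is read from the missing calls.

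**Figure D4:**
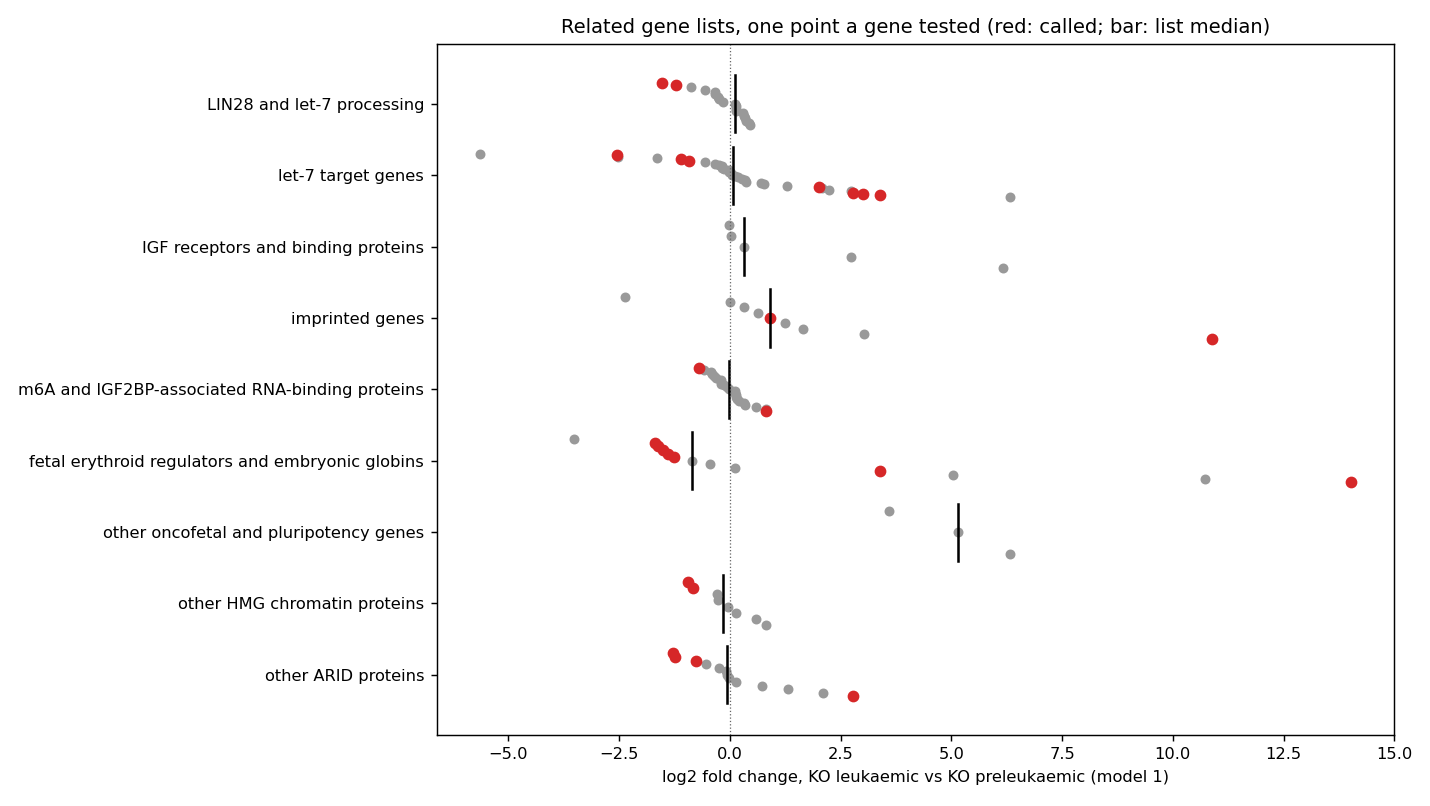
Log2 fold change between KO leukaemic and KO preleukaemic cells for every listed gene tested, by list; red points were called and bars mark list medians. Red points lie on both sides of 0 for let-7 targets, and on the negative side for 5 of the 7 called fetal erythroid regulators and globins.

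Genes tested outside the 10 were grouped by their let-7 seed matches in the 3' UTR. Between KO leukaemic and KO preleukaemic cells the median log2 fold change was -0.03 for 10110 genes without a match, 0.08 for 1049 with 1, 0.16 for 130 with 2 and 0.04 for 18 with 3 or more. The share of genes called, in either direction, was 14.4%, 17.1%, 20% and 27.8% in the same order. In model 2 the medians were -0.08, -0.23, -0.33 and -0.45 in the same order. Regions with more matches are also longer, and no test was made.

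Genes around Igf2bp1 and Arid3a are given beside the 13.3% called among all genes. Of 21 annotated genes within 250 kb of Igf2bp1 with model 1 counts, 14 were tested and 1 was called, Zfp652 (-0.61, SE 0.18, adjusted p = 0.048), and their median log2 fold change was -0.09. Around Arid3a 29 of 39 were tested and 3 were called, Abca7 (-1.46, SE 0.14, adjusted p = 0.0020) and Stk11 (-1.15, SE 0.18, adjusted p = 0.0094) lower and Efna2 (6.29, SE 1.67, adjusted p = 0.039) higher. The patterns most like that of Igf2bp1 over the 10 libraries of the model 1 table, by Pearson r of log2 CPM among 13393 genes, were those of Nfil3 (r = 0.998), Gpr157 (r = 0.997) and Vangl2 (r = 0.995). Those most like Arid3a were Wdr31 (r = 0.972), Ddah2 (r = 0.968) and Rcor2 (r = 0.966). For Igf2bp3 they were Lgmn (r = 0.972), Mrpl45 (r = 0.964) and Dlgap4 (r = 0.963), for Lin28b Slc25a13 (r = 0.928), Macroh2a1 (r = 0.895) and Myl12a (r = 0.867), for Igf2bp2 Tbc1d15 (r = 0.992), Anapc11 (r = 0.977) and Dennd1b (r = 0.974), and for Hmga1 Pofut2 (r = 0.935), Eprs (r = 0.927) and Copa (r = 0.921). These correlations are a description over libraries of 3 groups, 2 of which (preleukemic_445 and preleukemic_479) were nearly alike.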

How the data were processed

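Poly-A RNA-seq was made from cultured erythroid blasts of 17 mice, 1 library a mouse and table, with a stranded kit (300 ng of RNA and 2 min of fragmentation in model 2, 400 ng and 8 min in model 1). The authors deposited raw counts per gene; the submitters' processing notes name bcl2fastq 2.17.1.14, STAR 2.5.3a and HTSeq 0.6.1p1 and the builds mm10 and GRCm38. How the second table was made from 7 of the model 1 mice is not given in the sources used here, and its depth was up to 171572736 counts. Replicates are mice.

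Counts were tested as deposited with edgeR 4.0.16 (quasi-likelihood F test, TMM scaling, filterByExpr by group, Benjamini-Hochberg adjustment over all genes tested), each table alone, with all groups of a table in the fit. The difference between models was fitted over the genes of both tables and 17 libraries. Genes were called at a fold change of 1.5 or more, either way, with adjusted p below 0.05. CPM were computed on TMM-scaled library sizes, and log2 CPM used a prior count of 2. Intervals are exact (Clopper-Pearson) at 95%, and floors of 3 counts a library; both cover counting error only. The edgeR fit of each table and of the difference between models was run on simulated data for its first comparison only. The other comparisons and DESeq2 were not. Locations are from GENCODE M21; 99.8% of the IDs of the model 1 table matched. DESeq2 1.42.0, DESeq2 size factors, testing every gene, keeping genes that reached 1 CPM in 3 or more libraries, fits of the compared groups alone, summed preleukemic_445 and preleukemic_479 and leaving out each mouse were alternatives.

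The 10 genes and the lists were chosen with earlier results of these data known. Genes named from lists are the up to 4 largest increases and decreases among those called in a comparison, with up to 3 genes most correlated with each gene tested, and the genes called within 250 kb of Igf2bp1 and Arid3a. The second copy of the model 2 table was not used. Values of 1 listed let-7 target that the rule names are not reported here.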

Additional observations from a re-analysis of the deposited data

Results flagged for a closer look

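In groups of 4 mice, a mouse was singled out where its gap to the nearest other mouse, divided by the group's range, passed Dixon's 95% critical value. For normally distributed values chance gives this in about 1 of 20 groups. That rate does not hold here, since many CPM were near 0, groups shared mice and the genes were chosen on these levels. Of 20 groups examined 6 passed, and nothing is read from that count. In preleukaemic model 2 cells, preleukemic_633 stood apart for Igf2bp1 (98.3 CPM), Arid3a (52.4 CPM) and H19 (0.15 CPM, 6 counts), and preleukemic_663 for Lin28b (46.5 CPM). In WT preleukaemic cells Igf2bp2 stood apart in preleukemic_451 (4.17 CPM) in the model 1 table and in preleukemic_445 (3.97 CPM) in the second.

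The fitted difference of the leukaemic changes between the models was 24.26 on the log2 scale for Igf2bp1 and 3.61 for Arid3a. Both passed the threshold of the edgeR interaction term, but the genes were chosen on these levels and Igf2bp1 passed the filter only through the libraries where it is high, so these are descriptions. Leaving out each of 13 mice, the call was kept in 5 fits for Igf2bp1 and in 4 for Arid3a. Strain, library protocol, Fanca status and the way leukaemia arose cannot be told apart there.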

How the results depend on the processing

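No paired analysis was possible because the groups compared share no mouse numbers. Of the alternatives' values for the 35 fold changes, 19 moved by 1 SE or more, the rest by less, and no called one changed sign. Of the 10 genes, DESeq2 called 3 between KO leukaemic and WT preleukaemic cells of the model 1 table and 5 in the second table; without a filter the second table gave 4 and the difference between models 1. Fitting only the compared groups left 1 call between KO leukaemic and KO preleukaemic cells. Summing preleukemic_445 and preleukemic_479 left 1 call in the second table and 1 for the difference between models. Leaving out each mouse gave 1 to 3 calls for KO leukaemic against KO preleukaemic, 1 to 3 against WT preleukaemic cells in either table, and 0 to 3 for the difference between models; listed genes ranged from 7 to 28. For listed genes in model 2, DESeq2 gave 13 calls against 0. Between tools and settings with all mice, Igf2bp1 was called in each comparison with KO leukaemic cells. The causes of these changes were not tested. Over all genes, edgeR and DESeq2 called 1782 of 13393 and 3099 of 15664 between KO leukaemic and KO preleukaemic cells. Between preleukaemic groups they called 1 of 13393 and 256 of 13680, and against WT preleukaemic cells 939 of 13393 and 2245 of 15159. In the second table the calls were 267 of 16799 and 2011 of 20646, and in model 2 0 of 12970 and 470 of 13619. For the difference between models they were 673 of 14597 and 2037 of 15048. Shares over all genes under the other settings are not given here. Nothing is therefore read from the counts of the 10 genes or of listed genes under them. With 3 or 4 mice a group, genes at a few counts (Lin28a, Igf2, Hmga2) were below what this depth can compare.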

Other observations

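Library preleukemic_633, labelled preleukaemic in model 2, held the highest levels in its table of Igf2bp1 (98.3 CPM), Igf2bp3 (65.6 CPM), Arid3a (52.4 CPM), Hmga1 (127.8 CPM), Hbb-bh1 (81.5 CPM), Hic2 (69.7 CPM), Nr6a1 (22.6 CPM), Arid3b (27.2 CPM) and Airn (4.11 CPM). This co-occurrence was noticed in the data and not tested. Spi1, the transgene product's gene, was at 3.88 CPM in KO leukaemic leukemic_39, the mouse with the most Igf2bp1 in the model 1 table, against 220 CPM in leukemic_28 and 630 CPM in leukemic_26.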
